A study of Mus musculus with 4 samples.

Results

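Border-associated macrophages made up 67 of the 18045 cells that passed quality limits, 0.371% of cells sorted from mouse brain for the microglial reporter ZsGreen. They were chosen by UMI counts (unique molecular identifiers, each standing for 1 captured transcript) of 17 genes. Cells with fewer than 500 genes, fewer than 1000 UMIs or over 10% mitochondrial UMIs were not considered. The 6 microglial genes P2ry12, Tmem119, Siglech, Fcrls, Olfml3 and Selplg had to sum to under 30 per 10000 UMIs. Cd163, Lyve1, Cbr2 and Folr2 together had to reach 3 UMIs, with at least 1 UMI of Mrc1. Cells with 2 or more UMIs of the dendritic and lymphoid genes Cd209a, Flt3, Dpp4 and Klrb1b were left out, as were cells with 3 or more of Chil3 and Arg1, genes of monocyte-derived macrophages. Levels of these 17 genes are therefore described and not tested.

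The study compared the brains of female and male mice on day 3 after the right middle cerebral artery had been tied off for good, a model of ischaemic stroke, with sham-operated mice of each sex. All mice carried Tmem119-2A-CreERT2 and the Ai6 reporter, in which a Cre recombinase that tamoxifen activates is made from the microglial gene Tmem119 and switches on ZsGreen. Age and the tamoxifen schedule are not given in the sources used here. Each group was 1 pool of 4 perfused mice, from which the hemisphere on the operated side was dissociated, cleared on Percoll and sorted for live ZsGreen-positive cells. The cells thus come through a gate meant for microglia, and their number is no measure of how many border-associated macrophages the tissue held. Values for the 4 pools are given in the order female sham, female stroke, male sham, male stroke throughout.

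Border-associated macrophages live at the edges of the brain, in the leptomeninges, along the perivascular spaces and in the choroid plexus, outside the tissue in which microglia lie. They are scavengers: the mannose receptor Mrc1 (CD206), the haemoglobin-haptoglobin receptor Cd163 and the hyaluronan receptor Lyve1 are their usual markers, and they share with microglia a need for signals through Csf1r. Some carry much MHC class II, which presents antigen to T cells, and others little of it but much Lyve1. After stroke, blood monocytes enter the brain and become macrophages that can take on some of the same markers.

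The 4 pools held 6, 15, 17 and 29 of these cells, with summed counts of 42513, 333294, 123485 and 387869 UMIs. Their median depth was 6755, 22008, 6367 and 10167 UMIs per cell, so both stroke pools were deeper than both sham pools. No barcode of the male sham pool had under 4198 UMIs, whereas the lowest in the other pools was 500 or 501. Between 17 and 25 cell barcodes of a pool also occurred in another pool, among them 1 border-associated macrophage of the male sham pool. With 1 pool per group, the p-values below measure only spread between these 4 pools, and variation between mice is unknown. That spread was taken mostly over all genes together in the tests of stroke and sex. In the comparison with microglia-like cells it was taken wholly so.

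The sex of the pools was checked with Xist, the RNA of the inactive X chromosome, and with Y-linked genes. All 15 cells of the female stroke pool had Xist UMIs and none of the 29 of the male stroke pool did. In the male sham pool 2 of 17 cells had 4 and 5 Xist UMIs and no UMI of a Y-linked gene, and both also had Ccr2 and Mki67 UMIs. In the female sham pool 3 of 6 cells had neither Xist nor Y-linked UMIs. The main counts of called genes are given below with and without these 5 cells.

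Apart from the genes of the rule, the cells carried other markers of border-associated macrophages. Pf4, platelet factor 4, a chemokine gene active in these macrophages, had a UMI in 63 of 67 cells. F13a1, the A chain of coagulation factor XIII, was found in 62, Ms4a7 in 64, the scavenger receptor Stab1 in 66 and the endocytic adaptor Dab2 in all 67. The lectins Clec10a and Mgl2 were less widespread, in 34 and 20 cells. At least 5 of these 7 markers were present in 60 cells. Only 1 cell had 2 or fewer of them, a male stroke cell with 36809 UMIs, 50 UMIs of Top2a and 24 of Mki67, both genes of dividing cells, and none of Pf4 or F13a1. These markers are not particular to border-associated macrophages: in monocyte-derived macrophage-like cells of the female and male stroke pools Pf4 had a UMI in 53.8% and 58.5%, F13a1 in 75.2% and 72.2% and Ms4a7 in 82.8% and 86.4%, at median depths of 13692 and 14139 UMIs. They set the cells apart from microglia-like cells and do not by themselves separate them from macrophages derived from monocytes.

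Pf4 stood at 24.5, 18.8, 27.9 and 16.6 UMIs per 10000 in the 4 pools. It had a UMI in 83.3%, 100%, 100% and 89.7% of the cells. In microglia-like cells, the cells with at least 30 per 10000 of the 6 microglial genes and under 3 UMIs of the macrophage genes, these shares were 0.785%, 8.57%, 0.919% and 6.16% at median depths of 6196, 8648, 5442 and 8669 UMIs.

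The genes of the rule differed in how evenly they were spread. Cbr2, a carbonyl reductase, had a UMI in 58 of 67 cells and Folr2, a folate receptor, in 51. Cd163 (mm10, chromosome 6, 124304656 to 124330527) was found in 40 and Lyve1 (chromosome 7, 110850607 to 110863239) in 18. Mrc1 (chromosome 2, 14229392 to 14332057) summed to 19.8, 13.7, 26.2 and 7.63 UMIs per 10000 and ranged over single cells from 0.350 to 58.6. Cd163 was at 5.65, 2.49, 4.62 and 1.11 per 10000, with a UMI in 5 of 6, 6 of 15, 15 of 17 and 14 of 29 cells. Lyve1 was at 1.65, 0.630, 3.08 and 0.103. For Mrc1, Cd163 and Lyve1 both stroke pools were below both sham pools. Cbr2 was at 8.47, 4.95, 5.02 and 5.72 and Folr2 at 2.35, 2.76, 6.15 and 2.66, with no such order. These are values of genes that chose the cells, and no test was made on them.

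**Figure D1:**
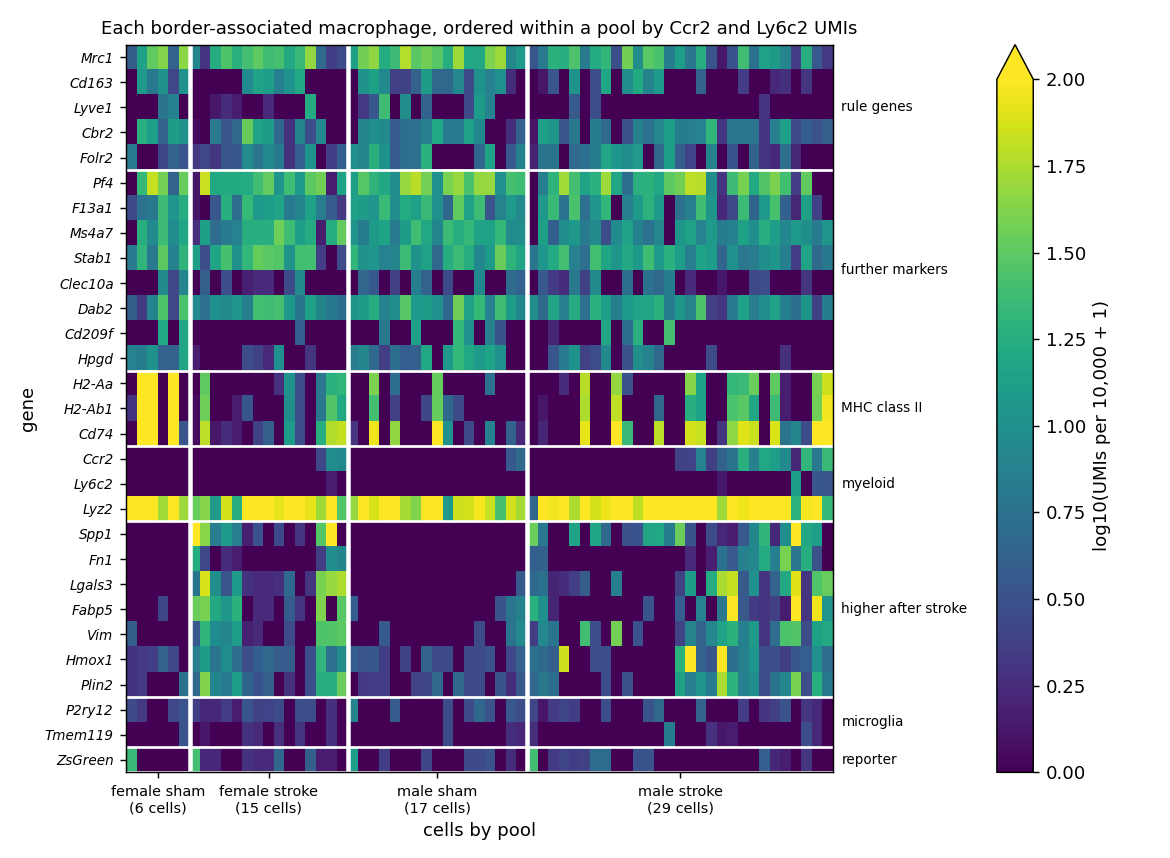
Selected genes in each border-associated macrophage, 1 column per cell grouped by pool and 1 row per gene, ordered within a pool by Ccr2 and Ly6c2 UMIs, with the colour showing log10(UMIs per 10000 + 1). Mrc1 was required by the rule and so is in every column. Pf4 was found in nearly every column, Cd163 in 40 of 67, and Spp1 and Fn1 in no sham cell.

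Cells just inside and just outside the limits were counted too. Of the members, 3, 4, 8 and 12 cells had between 20 and 30 per 10000 of the 6 microglial genes, and 3, 2, 4 and 4 cells that met all other conditions lay between 30 and 40. A sum of exactly 3 UMIs of Cd163, Lyve1, Cbr2 and Folr2 was the case for 0, 1, 0 and 6 members, and 1, 7, 1 and 4 cells missed the limit with exactly 2. The summed level of the 6 microglial genes in the members was 19.1, 14.2, 18.7 and 12.7 per 10000.

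The cells varied in MHC class II. At least 10 UMIs of these genes were found in 3, 5, 2 and 10 cells, 20 in all, and 29 cells had none. H2-Aa, a class II chain, was at 72.0, 6.18, 4.37 and 13.8 UMIs per 10000 and Cd74, the invariant chain that guides class II through the cell, at 145, 16.4, 14.7 and 31.6. The female sham pool, with 6 cells, stood far above the other pools for both. Neither passed the test of stroke against sham (H2-Aa log2 −1.07 ± 0.97 (SE), adjusted p = 0.629, and Cd74 adjusted p = 0.535). Without the female sham pool the difference turned to 1.21 for H2-Aa, with adjusted p = 0.0152, and to 0.72 for Cd74. Without the male sham pool it was −2.84 for H2-Aa (adjusted p = 4.26e-15), so that the sign depended on which sham pool stood for the control.

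Genes of blood monocytes were present in some of the cells. At least 2 UMIs of Ccr2, the receptor by which monocytes leave the blood, and Ly6c2 were found in 0, 3, 2 and 14 cells, 19 in all, and 47 cells had none. Of the 19 cells, 11 also had at least 10 UMIs of MHC class II and 7 had a Cd163 or Lyve1 UMI. The 17 stroke cells with at least 2 such UMIs had 0.194 per 10000 of Cd163 and 4.59 of Mrc1. The other 27 stroke cells had 2.91 and 14.8, and the 21 sham cells without these UMIs 5.77 and 27.5. Pf4 differed less, at 17.1, 18.0 and 27.6 per 10000 in the same order. The stroke cells with these UMIs thus had the lower Cd163 and Mrc1 levels, and results are given below with and without them.

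Compared with the other sorted cells, the genes that led the border-associated macrophages were Cd209f, Cd163, Lyve1, Cp, Ccl8, Fcna, Adam33, Tslp, S100a8 and C4b, ranked by their level over the higher of microglia-like and monocyte-derived macrophage-like cells. This is a description of cells chosen by some of these genes. Cd209f, a C-type lectin, was at 0.812 UMIs per 10000 in the 67 cells, at 0.000840 in microglia-like cells and at 0 in monocyte-derived macrophage-like cells. Ccl8, a chemokine, was at 5.97, 0.00731 and 0.205 in the same order. Pf4, at 19.3 against 0.158 in microglia-like cells, was nearly as high in monocyte-derived macrophage-like cells, at 13.1. S100a8, a neutrophil gene, owed 70.3% of its UMIs to 1 cell.

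Genes shared with microglia gave a mixed picture. Cx3cr1, the fractalkine receptor, was at 4.96 UMIs per 10000 against 32.2 in microglia-like cells. C1qa, a subunit of complement C1q, was at 57.1 against 87.4. Apoe, the lipid carrier apolipoprotein E, was at 254 against 21.1, and at 214 in monocyte-derived macrophage-like cells. Lyz2, lysozyme, was at 97.3 against 7.38 and 111.

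Among female cells, border-associated macrophages made up 0.1497% of the sham pool (exact 95% binomial interval 0.0550 to 0.326) and 0.301% of the stroke pool (0.169 to 0.496). Among male cells they made up 0.343% (0.1999 to 0.549) after sham and 0.707% (0.474 to 1.01) after stroke. The stroke pool was higher than the sham pool in each sex, and the intervals overlapped in both. They cover counting error only. With 1 pool per group there is no test. When every cell was first thinned to 3000 UMIs, 5, 9, 12 and 16 cells met the rule and the male stroke share was 0.426%. Without cells with at least 2 UMIs of Ccr2 and Ly6c2 6, 12, 15 and 15 cells remained, and the male stroke share was 0.366%.

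The limit on Chil3 and Arg1 left out more stroke cells than the rule kept. Without it 87 cells (1.75%, 1.40 to 2.15) of the female stroke and 82 cells (2.00%, 1.59 to 2.48) of the male stroke pool qualified, and the sham pools gained none. Chil3 (Ym1) and Arg1, arginase, mark alternatively activated and monocyte-derived macrophages. Thus 72 and 53 cells of the stroke pools had Mrc1 and enough of the other markers and were left out on those 2 genes alone.

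**Figure D2:**
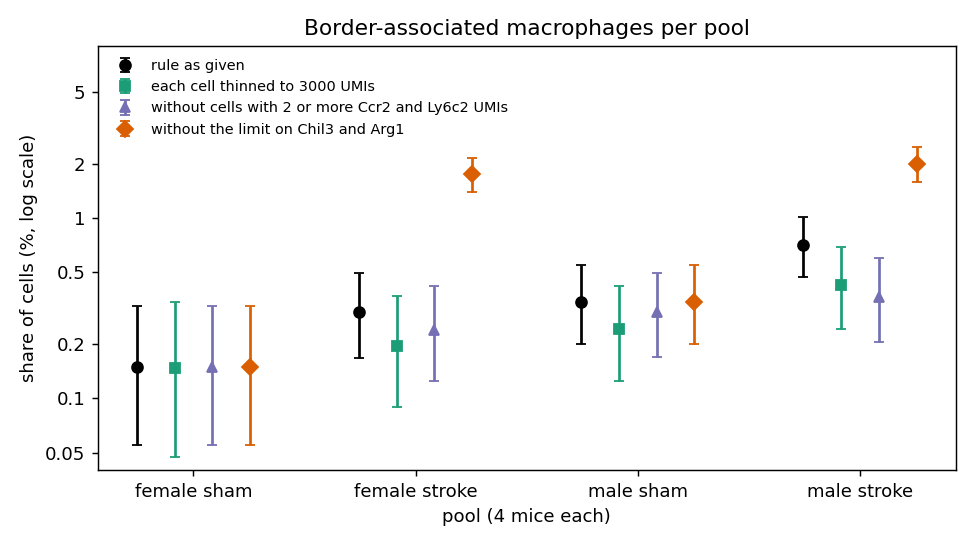
Share of cells that met the rule in each pool, in percent of cells after quality limits on a log axis, under the rule as given and under 3 changes to it, with exact 95% binomial intervals as bars. Under the rule as given the share was 0.1497%, 0.301%, 0.343% and 0.707%, and without the limit on Chil3 and Arg1 it was 1.75% and 2.00% in the stroke pools.

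ZsGreen, the transcript of the reporter the cells were sorted for, was found in fewer border-associated macrophages than microglia-like cells. It had a UMI in 1 of 6, 10 of 15, 7 of 17 and 13 of 29 cells, 31 in all (46.3%), against 94.1% of microglia-like cells. With each cell thinned to 3000 UMIs the shares were 16 of 64 cells and 87.8%. Other classes of sorted cells had 16.3% (dendritic cell-like), 17.9% (monocyte-derived macrophage-like), 18.0% (choroid plexus-like), 31.6% (neutrophil-like) and 39.1% (T or NK cell-like) at that depth. The share in border-associated macrophages thus lay between those of choroid plexus-like and neutrophil-like cells.

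The level of ZsGreen was 5.17, 5.28, 1.46 and 2.76 per 10000 in border-associated macrophages and 6.36, 17.0, 6.85 and 16.1 in microglia-like cells. In each pool 1 border-associated macrophage had at least 10 per 10000, at 21.1, 24.1, 11.9 and 24.2. Leaving these 4 cells out gave 118 higher and 91 lower genes in the comparison of stroke with sham described next.

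**Figure D3:**
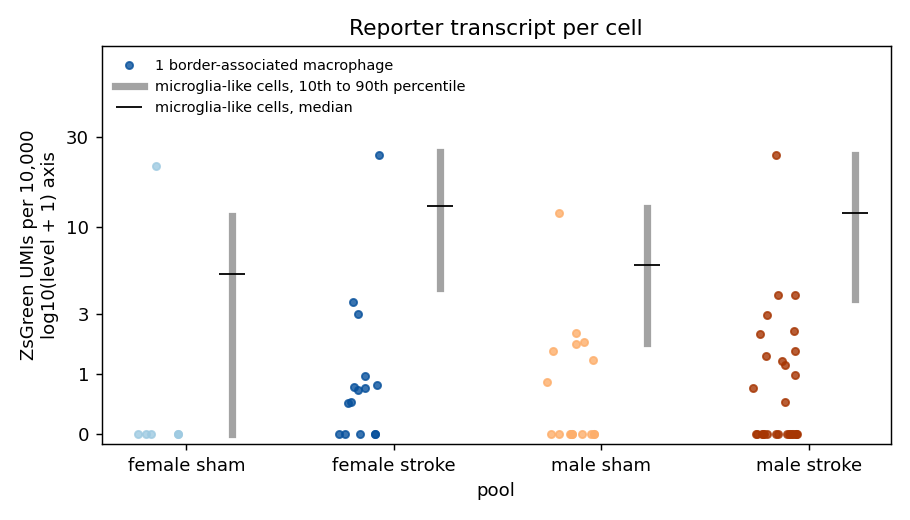
ZsGreen UMIs per 10000, on an axis of log10(level + 1), in each border-associated macrophage (points) beside the median and the range from the 10th to the 90th percentile of microglia-like cells of the same pool. In each pool 1 border-associated macrophage reached at least 10 per 10000, and 36 of 67 had none.

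Stroke was compared with sham over the summed counts of the 4 pools, with sex as a term. Among 3765 genes that passed the filter on low counts and were not used by the rule, 83 (2.2%) rose and 62 (1.65%) fell after stroke (edgeR's quasi-likelihood test, Benjamini-Hochberg adjusted p under 0.05). Genes of the galectin, S100, annexin and glycolysis groups, of lipid uptake and storage and of the extracellular matrix were among those that rose. Markers of resident border-associated macrophages, immediate early genes and the macrophage transcription factor Maf were among those that fell. All 145 called genes moved the same way in both sexes. The test itself favours this, since disagreement between the sexes is the only spread left within a gene, so it is no separate support. The median log2 change over all tested genes was 0.03.

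The numbers of calls depended on the cells and libraries that entered. Without the female sham pool, the smallest, 193 genes rose and 131 fell, and without the 5 cells whose Xist went against their pool 123 and 78. DESeq2 called 19 and 13. Counts thinned to 3000 UMIs per cell gave 38 and 18 of 769 genes tested. With under 20 instead of 30 per 10000 of the 6 microglial genes, which left 3, 11, 9 and 17 cells, only Lgals3 and Spp1 passed the test, both higher.

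Lgals3, the lectin galectin-3 (chromosome 14, 47367751 to 47386160), was called in every setting tried. It was at 0, 20.04, 0.324 and 18.4 UMIs per 10000, with a UMI in 0 of 6, 14 of 15, 1 of 17 and 21 of 29 cells. Both stroke pools were far above both sham pools, and all 4 Lgals3 UMIs of the male sham pool were in 1 of the 2 cells with Xist. The log2 change was 6.32 ± 0.58 (SE), with adjusted p = 4.84e-06, and it passed the test in 18 of 18 alternatives. Among T or NK cell-like cells, which should lack the gene, 1 of 9 had a UMI in each stroke pool, at median depths of 3265 and 3805 UMIs. In monocyte-derived macrophage-like cells of the female and male stroke pools Lgals3 was higher still, at 37.4 and 32.4 per 10000.

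Other members of the galectin, S100 and annexin list rose with it. Of 18 tested members 8 rose and none fell, namely Lgals1, Lgals3, S100a4, S100a6, S100a11, Anxa2, Anxa5 and Vim, with a median log2 change of 1.79 over the 18. S100a6, a calcium-binding protein, was at 0, 5.73, 0.810 and 8.92 per 10000 (log2 change 3.84 ± 0.48, adjusted p = 1.32e-04). Vim, the intermediate filament vimentin, was at 0.706, 10.7, 1.70 and 9.82 (2.91 ± 0.41, adjusted p = 4.33e-04). Lgals1, galectin-1, was at 2.82, 22.8, 6.56 and 24.6 (2.32 ± 0.40, adjusted p = 0.00267), so that a low level in sham cells was multiplied in both sexes. Anxa2, a membrane-binding annexin, was at 0, 3.12, 0.486 and 2.94 (3.08 ± 0.55, adjusted p = 0.0028).

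Of 13 tested genes of lipid handling 5 rose (Apoc2, Lipa, Abcg1, Fabp5 and Plin2) and none fell, with a median of 1.30. Fabp5, a carrier of fatty acids, was at 0.235, 18.8, 1.62 and 26.2 UMIs per 10000 (log2 change 4.48 ± 0.49, adjusted p = 3.06e-05), and 16 of its 20 UMIs in the male sham pool were in the 2 cells with Xist. Plin2, a coat protein of lipid droplets, was at 0.941, 11.8, 1.38 and 11.3 (3.20 ± 0.40, adjusted p = 1.32e-04). Both were low in each sham pool and high in each stroke pool. In monocyte-derived macrophage-like cells of the female and male stroke pools Fabp5 was higher still, at 54.1 and 49.3. Abcg1, an exporter of cholesterol, had no UMI in either sham pool and was at 1.29 and 1.01 in the stroke pools, at least 6.29-fold higher than 3 UMIs over both sham pools would give (adjusted p = 0.00981). Apoe, in contrast, was at 517, 165, 403 and 254 and did not pass the test (log2 −1.22 ± 0.55, adjusted p = 0.242).

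Hmox1, heme oxygenase 1, which breaks down heme, was at 1.41, 6.63, 1.86 and 18.8 UMIs per 10000 (log2 change 2.91 ± 0.43, adjusted p = 7.57e-04), and 37.7% of its UMIs were in 1 cell. In monocyte-derived macrophage-like cells of the female and male stroke pools Hmox1 was at 5.87 and 7.99. It was the only one of 13 tested genes of heme and iron handling that rose, and Cp was the only one that fell. The ferritin chains Ftl1, at 60.5, 137, 66.6 and 163, and Fth1, at 66.1, 121, 79.5 and 186, were higher in each stroke pool than in each sham pool and did not pass the test (adjusted p = 0.164 and 0.257).

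Of 12 tested genes of glycolysis and hypoxia 7 rose (Aldoa, Tpi1, Gapdh, Pgam1, Pkm, Ldha and Hif1a) and none fell, with a median of 1.79. Pkm, pyruvate kinase, was at 0.706, 7.23, 1.21 and 5.59 per 10000 (2.51 ± 0.38, adjusted p = 8.63e-04). Hif1a, a transcription factor that accumulates when oxygen is scarce, was at 0.470, 2.55, 0.567 and 2.73 (2.28 ± 0.47, adjusted p = 0.00812). Ldha, lactate dehydrogenase A, was at 0.941, 3.99, 0.891 and 3.61 (2.00 ± 0.39, adjusted p = 0.00533). Without the cells with at least 2 UMIs of Ccr2 and Ly6c2 only Pkm rose among 11 tested.

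Of 24 tested lysosomal genes 3 rose (Ctsd, Ctsl and Cstb) and 1 fell (Cst3), with a median of 0.22. Over all tested genes 2.2% rose and 1.65% fell. Cstb, the cathepsin inhibitor cystatin B, was at 2.12, 18.2, 5.18 and 17.3 UMIs per 10000 (log2 change 2.23 ± 0.40, adjusted p = 0.00307). Ctsd, cathepsin D, was at 13.4, 65.9, 24.4 and 62.7 (1.75 ± 0.42, adjusted p = 0.0249). Cst3, the cathepsin inhibitor cystatin C, was at 137, 26.6, 106 and 33.1 (−2.08 ± 0.45, adjusted p = 0.0129). Cystatin B was thus higher and cystatin C lower in both stroke pools. Without the deepest cell of each pool Ctsd no longer passed (adjusted p = 0.0624). The Ctsd and Ctsl calls each held in 14 of 18 alternatives. Without the cells with at least 2 UMIs of Ccr2 and Ly6c2 none of the 24 lysosomal genes passed.

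Spp1, the secreted matrix protein osteopontin (chromosome 5, 104435118 to 104441050), had no UMI in the 23 sham cells and 2383 and 503 UMIs in the female and male stroke pools, or 71.5 and 12.97 per 10000. It was at least 221-fold higher after stroke (adjusted p = 1.78e-06). Its UMIs were in 11 of 15 and 23 of 29 stroke cells, but 62.3% of them were in a single female stroke cell, the deepest of all with 65880 UMIs. That cell was also the 1 of its pool with ZsGreen at 10 per 10000 or more, at 24.1. Its 6 microglial genes were at 25.7, near the limit of the rule. It had 48 Mrc1 UMIs, 8 UMIs over Cd163, Lyve1, Cbr2 and Folr2, and 2 of Pf4. Without it the female stroke pool was at 21.8. The median stroke cell was at 2.20 and 4.00 per 10000 in the females and the males. The male stroke cell with 36809 UMIs had ZsGreen at 24.2, the microglial genes at 22.5, 125 Spp1 UMIs and none of Pf4 or F13a1. Whether this cell and the female one are microglia was not tested. The Spp1 call held without the 4 cells of high ZsGreen. DESeq2 did not call it (adjusted p = 0.197). With cells thinned to 3000 UMIs Spp1 had a UMI in 46.7% and 65.4% of border-associated macrophages of the stroke pools and in 13.1% and 12.5% of choroid plexus-like cells. In monocyte-derived macrophage-like cells of the female and male stroke pools Spp1 was at 29.3 and 42.2 per 10000.

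Other matrix genes rose with Spp1. Of 12 tested genes of the matrix list 4 rose (Spp1, Fn1, Thbs1 and Adam8), with a median of 0.90. Fn1, fibronectin, was at 0, 4.71, 0 and 5.34, at least 27.9-fold higher after stroke (adjusted p = 1.53e-05, DESeq2 0.585), and 6 of the 21 cells with a Fn1 UMI had no Ccr2 or Ly6c2 UMI. The female stroke cell with the most Spp1 UMIs also had 108 Fn1 UMIs. Thbs1, thrombospondin 1, was at 0, 0.450, 0 and 4.18, at least 13.6-fold higher (adjusted p = 4.03e-04, DESeq2 0.763), and lay mostly in the male stroke pool. Gpnmb, a glycoprotein of phagocytic macrophages, was at 0, 1.20, 0 and 2.37, at least 10.1-fold higher (adjusted p = 0.00132). None of the 3 had a UMI in either sham pool, where the summed depth was lower. Fn1, Thbs1 and Gpnmb are also markers of monocyte-derived macrophages, of whose 6 tested markers 5 rose.

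The summed level of the 14 monocyte-derived macrophage markers outside the rule (without Chil3 and Arg1), most of it from Lyz2, was 118, 78.6, 88.5 and 146 per 10000, and 12, 3, 11 and 1 of them had no UMI. Ccr2 itself rose, from 0 and 0.729 in the sham pools to 1.26 and 4.59 in the stroke pools (log2 change 2.83 ± 0.50, adjusted p = 0.0028). Among stroke cells, Lgals3 was at 33.1 per 10000 in the 17 with at least 2 UMIs of Ccr2 and Ly6c2 and 8.74 in the other 27. Hmox1 was at 21.7 and 6.72, Thbs1 at 5.56 and 0.121, and Fn1 at 7.34 and 3.32. Spp1 was at 22.5 and 53.1, but the 27 cells include the single female stroke cell with 1799 Spp1 UMIs. The higher sum there rests largely on that cell. In the 21 sham cells without monocyte UMIs Lgals3 and Spp1 were both at 0.

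With the cells that had 2 or more UMIs of Ccr2 and Ly6c2 left out, 13 genes rose and 11 fell of 2103 tested. Of the 145 genes called before, 126 were tested and 23 passed again in the same direction. Among them were Lgals3, Spp1, Fn1, S100a6, Anxa2, Vim, Lgals1, Fabp5, Pkm, Hmox1 and the chemokine Ccl9 as rises, and Cd4, Cd83, Ifi213, Mgl2, Hpgd and H2-T23 as falls. Those that no longer passed included Plin2, Cstb, Ctsd, Ctsl, Cst3, Maf, Mef2c, Ltc4s, Cd209f, Jun, Jund and Btg2. The female stroke cell with 1799 Spp1 and 108 Fn1 UMIs was among the cells kept. The sets differ in the number of cells as well as in these UMIs, and the part of each was not tested.

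**Figure D4:**
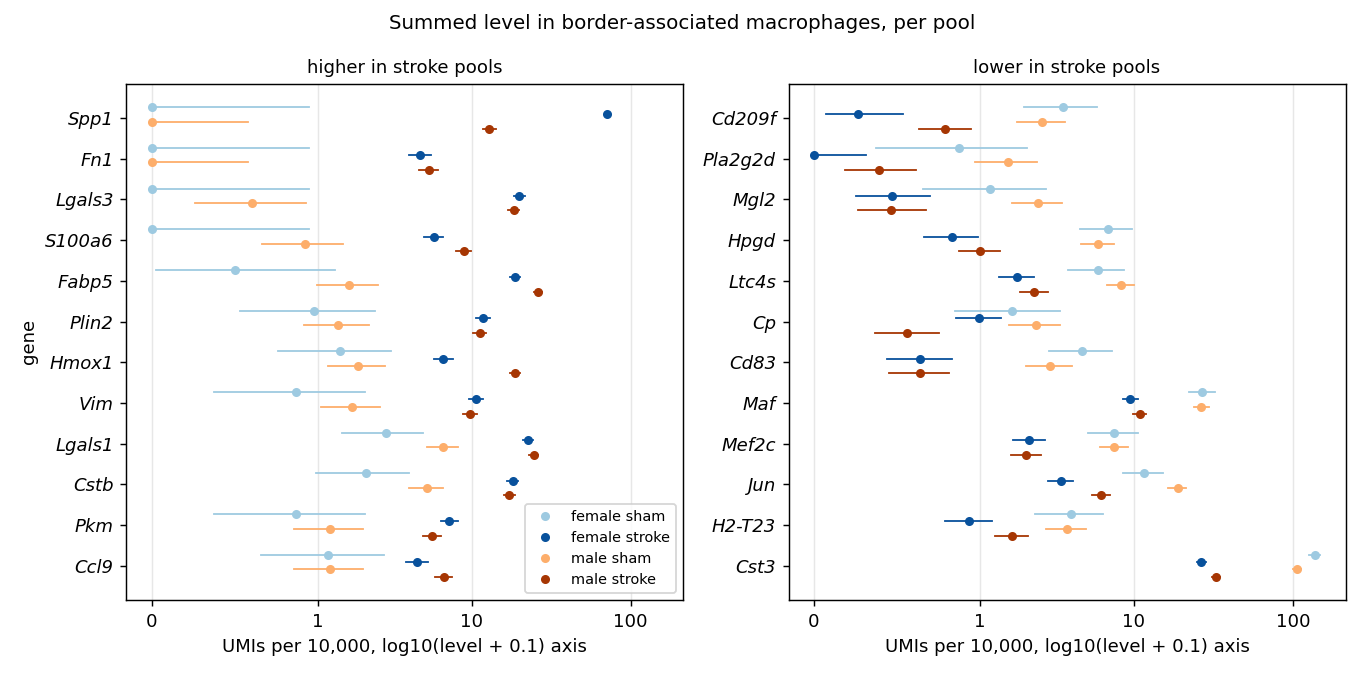
UMIs per 10000 of selected genes in the summed border-associated macrophages of each pool, 1 point per pool with its exact 95% Poisson interval for counting error, on an axis of log10(level + 0.1), for genes that rose and genes that fell after stroke. Lgals3 was at 0 and 0.324 in the sham pools and at 20.04 and 18.4 in the stroke pools, and Hpgd at 6.82 and 5.91 against 0.630 and 1.01.

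Chemokine genes gave 2 rises among 10 tested and a median of 1.03. Ccl2, which attracts monocytes, was at 0, 2.25, 0.972 and 4.92 UMIs per 10000 (log2 change 2.64 ± 0.47, adjusted p = 0.0028). Ccl9 was at 1.18, 4.50, 1.21 and 6.68 (2.25 ± 0.37, adjusted p = 0.00151). Ccl8, which was among the leading genes of these cells, was at 0.235, 9.69, 3.32 and 4.25 and did not pass (adjusted p = 0.131). Without the male stroke pool Ccl2 did not pass either.

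Of 35 tested resident markers other than those of the rule, 8 fell (Mgl2, Maf, Igfbp4, Hpgd, Cd209f, Ltc4s, Cp and Pla2g2d) and none rose, with a median of −0.75. Hpgd (chromosome 8, 56294585 to 56321043), which inactivates prostaglandins, was at 6.82, 0.630, 5.91 and 1.01 UMIs per 10000 (log2 change −2.97 ± 0.34, adjusted p = 5.13e-05). Ltc4s, leukotriene C4 synthase, was at 5.88, 1.77, 8.26 and 2.29 (−1.85 ± 0.30, adjusted p = 0.00151). These 2 enzymes of lipid mediators were lower in both stroke pools than in either sham pool.

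Cd209f (chromosome 8, 4102787 to 4105835) was at 3.53, 0.0900, 2.59 and 0.567 per 10000 (log2 change −3.16 ± 0.56, adjusted p = 0.0028) and was found in 14 cells. The lectin Mgl2 was at 1.18, 0.210, 2.43 and 0.206 (−3.18 ± 0.56, adjusted p = 0.0028). Pla2g2d, a secreted phospholipase, was at 0.706, 0, 1.54 and 0.155 (−3.72 ± 0.81, adjusted p = 0.0127). Each was low in both stroke pools, from few UMIs. Ceruloplasmin, Cp, a copper-carrying ferroxidase, was at 1.65, 0.990, 2.35 and 0.284 (−2.02 ± 0.51, adjusted p = 0.0328) and did not pass without the male stroke pool, without the male sham pool or without the deepest cell of each pool.

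Other resident markers did not pass the test. Pf4 differed by −0.63 ± 0.37 (adjusted p = 0.396) and Stab1 by −0.44 (adjusted p = 0.557). A p that misses the threshold does not show that a level was equal in both conditions. Pf4 passed in none of 18 alternatives.

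Among macrophage transcription factors 3 of 18 tested fell (Maf, Mef2c and Klf2), Id2 was among those that rose, and the median was −0.48. Maf, a factor of resident macrophages, was at 26.8, 9.51, 26.6 and 10.9 UMIs per 10000 (log2 change −1.45 ± 0.37, adjusted p = 0.0323). The Maf call held in 11 of 18 alternatives. Mef2c, a factor also active in microglia, was at 7.53, 2.13, 7.53 and 2.04 (−1.91 ± 0.30, adjusted p = 0.00127).

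Immediate early genes are switched on within minutes of a stimulus and also during tissue dissociation. Of 16 tested, 5 fell (Fos, Jun, Jund, Btg2 and Klf2) and none rose, with a median of −0.66. Jun was at 11.5, 3.42, 18.9 and 6.21 UMIs per 10000 (log2 change −1.73 ± 0.35, adjusted p = 0.00708). Without the female stroke pool it did not pass. Without the cells with at least 2 UMIs of Ccr2 and Ly6c2 none of 11 tested immediate early genes fell.

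Some genes of the cell surface fell. Cd83, which holds MHC class II at the cell surface, was at 4.70, 0.360, 2.92 and 0.361 per 10000 (log2 change −3.37 ± 0.43, adjusted p = 1.32e-04). Cd4, the co-receptor of helper T cells that some macrophages also make, had 7 and 12 UMIs in the sham pools and none in the stroke pools, at least 27.5-fold lower (adjusted p = 9.68e-04), and passed in each of the 13 alternatives that tested it. It was the only gene of 12 T and NK cell markers with a UMI in these cells. H2-T23, a non-classical class I gene, was at 4.00, 0.840, 3.73 and 1.65 (−1.63 ± 0.36, adjusted p = 0.0151), the only one of 10 tested class I genes that fell. Of 12 tested genes of the class II list 1 fell and none rose, with a median of −1.08. It was H2-DMb1, which helps load peptides, at 4.47, 0.450, 2.19 and 1.21 UMIs per 10000 (log2 change −1.89, adjusted p = 0.0364), and the call held in 9 of 18 alternatives.

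Several groups showed few or no calls. None of 17 tested interferon-induced genes passed, with a median of −0.49. None of 12 tested inflammatory NF-kB target genes did (median −0.24), and none of 9 tested genes around Csf1r. Csf1r itself was at 22.1, 8.79, 15.3 and 7.94 UMIs per 10000 (adjusted p = 0.0696). Complement genes gave 2 rises (Itgam and Cfp) among 10 tested, and C1qa, at 76.0, 57.0, 89.3 and 44.9, did not pass (log2 −0.76, adjusted p = 0.366). Genes of scavenging and endocytosis gave 1 fall among 16 (Ap2a2, adjusted p = 0.0492, a call that held in 2 of 18 alternatives) and efferocytosis genes 1 rise (Abcg1) among 13. For none of these groups was the difference from other genes tested.

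Ttr, transthyretin, made in bulk by choroid plexus epithelium, was at 2.35, 1.20, 11.7 and 0.722 UMIs per 10000 and fell (adjusted p = 0.00185). The cell class with the fewest Ttr UMIs per cell in a pool had from 41.7% to 191% of the count per border-associated macrophage. Choroid plexus-like cells were 5.96%, 1.79%, 10.4% and 1.07% of the 4 pools and moved with Ttr. The part of this free RNA in the fall was not tested. Markers of mural cells, astrocytes, mast cells, red cells and dendritic cells outside the rule had no member above the filter.

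The response to stroke was then compared with that of the 13852 microglia-like cells of the same pools, in a fit with a term for each pool, for the class and for the class after stroke. Over 13097 genes the response of border-associated macrophages was higher for 39 (0.298%) and lower for 81 (0.618%). Restricted to genes that passed the filter in border-associated macrophages themselves, 7 were higher and 49 lower. DESeq2 gave 11 and 108 and edgeR with DESeq2's size factors 21 and 124, so that the share of higher responses depended on the scaling. Leaving out a pool gave 10 and 88 (female sham), 17 and 34 (female stroke), 6 and 24 (male sham) or 7 and 50 (male stroke).

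Interferon-induced genes were among those with a lower response. Of 30 tested 13 had a lower response in border-associated macrophages and none a higher one, with a median of −2.66 beside 0.38 over all genes, and 9 of 17 remained lower among genes that passed the filter in these cells. The summed level of the list was 65.4, 39.8, 69.2 and 61.1 UMIs per 10000 in border-associated macrophages. It was 7.49, 29.7, 8.48 and 35.2 in microglia-like cells. The sham levels were thus high in the macrophages and low in microglia-like cells, and the levels after stroke lay closer together.

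Ifi27l2a, an interferon-induced gene, was at 10.1, 2.52, 13.7 and 13.05 per 10000 in border-associated macrophages and at 0.543, 7.56, 0.630 and 9.56 in microglia-like cells. The responses differed by −4.74 ± 0.33 on the log2 scale (adjusted p = 3.12e-42), and the call held in 18 of 18 alternatives. Restricted to genes that passed the filter in border-associated macrophages, adjusted p was 0.0014. The size of the p-value thus depended strongly on which genes entered the fit. Within border-associated macrophages Ifi27l2a did not pass the test of stroke against sham (adjusted p = 0.223), and without the female stroke pool the difference there was 0.0891.

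**Figure D5:**
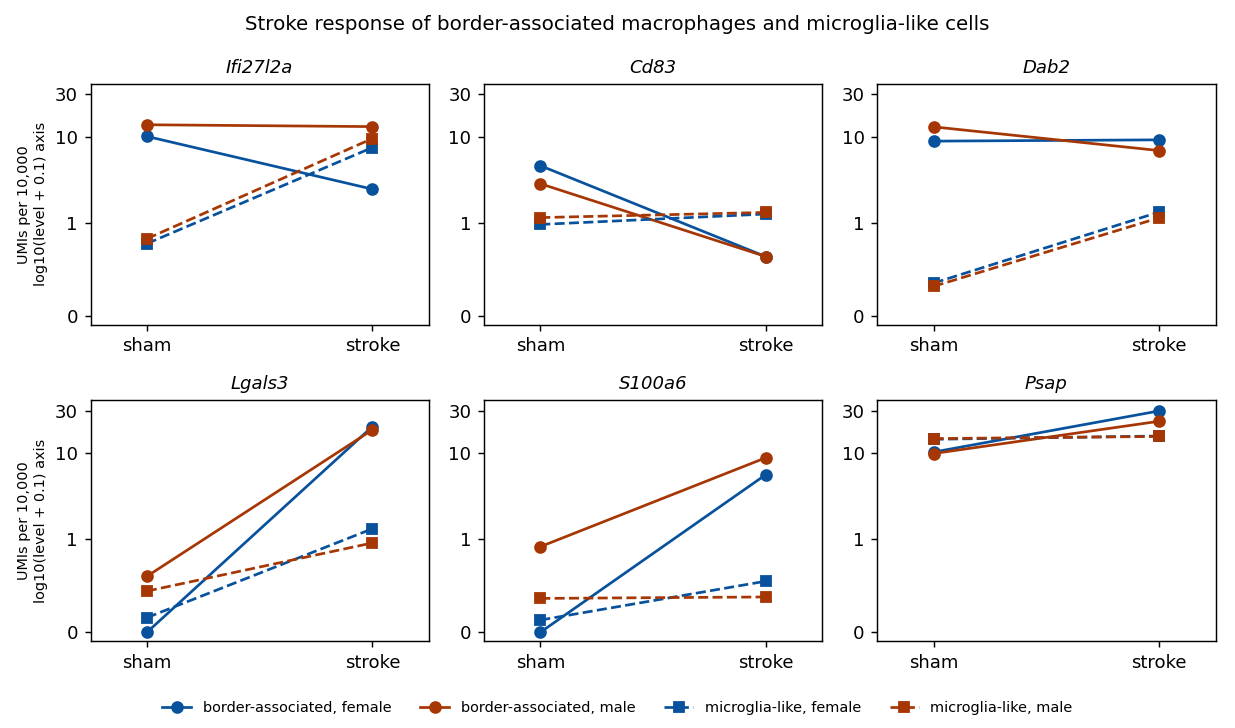
Level in sham and stroke pools, joined by lines, of selected genes in border-associated macrophages and in microglia-like cells, in UMIs per 10000 on an axis of log10(level + 0.1) and for each sex. Ifi27l2a rose from 0.543 to 7.56 and from 0.630 to 9.56 in microglia-like cells and went from 10.1 to 2.52 and from 13.7 to 13.05 in border-associated macrophages.

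Marker genes of border-associated macrophages also had lower responses. Dab2 was at 8.94, 9.24, 12.96 and 6.99 per 10000 in the macrophages and at 0.133, 1.35, 0.114 and 1.15 in microglia-like cells (difference of responses −3.73 ± 0.32, adjusted p = 7.88e-27). Of 40 marker genes of border-associated macrophages, 7 had a lower response in these cells (F13a1, Ms4a6c, Clec4n, Dab2, Gas6, Wfdc17 and Gpx3) and none a higher one. Cd83 was at 0.954, 1.28, 1.16 and 1.34 in microglia-like cells, so that its fall was not shared (−3.51 ± 0.44, adjusted p = 3.33e-12). Both calls held in 18 of 18 alternatives. Restricted to genes that passed the filter in border-associated macrophages, adjusted p was 9.18e-05 for Dab2 and 0.0014 for Cd83.

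Some responses were higher. Lgals3 rose more on the log2 scale than in microglia-like cells, by 3.54 ± 0.58 (adjusted p = 7.63e-07). S100a6 was at 0, 5.73, 0.810 and 8.92 UMIs per 10000 in border-associated macrophages and its response was higher by 2.85 ± 0.49 (adjusted p = 2.44e-06). The Lgals3 call held in 17 of 18 alternatives and the S100a6 call in 11. Restricted to genes that passed the filter in border-associated macrophages, adjusted p was 0.00993 for Lgals3 and 0.0886 for S100a6.

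The sexes differed in 3 genes among 3765, 1 higher in females (0.0266%) and 2 lower (0.0531%). Xist was higher, at 7.76, 7.38, 0.729 and 0 UMIs per 10000 (adjusted p = 3.42e-04). Thbs1 was lower in females (log2 −3.26, adjusted p = 0.0149), with UMIs in stroke cells alone. Hist1h1b, a histone of dividing cells, was lower (−5.40, adjusted p = 0.0243), and 83.9% of its UMIs were in 1 cell. DESeq2 called 1 gene higher and none lower, and 96 genes had an unadjusted p under 0.05 by edgeR. Whether the response to stroke differed between the sexes could not be tested with 1 pool per group.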

How the data were processed

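The deposited matrices hold counts, whole numbers of UMIs per gene and barcode for 32286 features, in 4 pools of 4 mice. Per the submitters' processing notes, Cell Ranger 7.1.0 and build mm10 were used, but per the file headers cellranger 6.1.2 wrote the matrices. The treatment of intronic reads is not stated. Of 20437 barcodes, 18045 passed the quality limits. No doublet caller was run. Positions are from GENCODE M21.

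Counts of the cells that met the rule were summed per pool, since cells are not replicates. edgeR 4.0.16 (R 4.3.3) fitted a sex and a treatment term after filterByExpr and TMM, with two-sided quasi-likelihood tests, Benjamini-Hochberg adjustment at 0.05, 1 residual and 16.9 prior degrees of freedom. SEs are log2 changes over the root of F. The fit against microglia-like cells left 2 residual degrees of freedom, and its spread came from all genes together. A gene at 0 in one condition was set against a floor of 3 counts summed over that condition's pools. On simulated counts of 3336 genes the stroke test recovered 42.5% of log2 rises of 2 and 30.2% of falls of 2. DESeq2 1.42.0 was an alternative. Sums and intervals were made in Python 3.11.15 (scipy 1.17.1, numpy 2.4.6, pandas 2.3.3) and figures in matplotlib 3.10.9.

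The members and the 39 gene lists were chosen with earlier results of these data known. Genes were named by rule: the genes of the cell rule and the given markers, the 12 largest called rises and falls with the same direction in both sexes and at least 20 UMIs, up to 4 members of each list by change and 2 by UMIs, the 10 largest differences from microglia-like cells, and the 10 leading genes. Values of the last but one were left out where both sham sums of border-associated macrophages were 0. Other genes (among them Hif1a, Xist and those of closing results) were named after their values were seen. Some genes are not reported here.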

Additional observations from a re-analysis of the deposited data

Results flagged for a closer look

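For 11 genes named after their values were seen, the response to stroke differed between border-associated macrophages and microglia-like cells by the test of the difference itself. The response was lower in border-associated macrophages by log2 −6.00 ± 1.05 (SE) for Ifi213 (adjusted p = 4.95e-06), −5.67 ± 1.02 for Iigp1 (adjusted p = 1.22e-05), −4.74 ± 0.33 for Ifi27l2a (adjusted p = 3.12e-42) and −4.11 ± 0.64 for Ifit3 (adjusted p = 8.43e-08), all interferon-induced genes. It was also lower by −3.73 for Dab2, −3.89 ± 0.56 for the growth factor Igf1 (adjusted p = 4.63e-09), −3.51 for Cd83 and −3.51 ± 0.50 for the chemokine Ccl7 (adjusted p = 2.84e-09). With thinned cells edgeR did not call Ifi213, Iigp1, Ifit3 or Igf1 (adjusted p = 0.551, 0.264, 0.16 and 0.70). The calls held in 17 of 18 alternatives for Ifi213 and Ccl7, 16 of 18 for Igf1 and 15 of 17 for Iigp1 and Ifit3. The losses other than by thinning came without the male sham pool. Restricted to genes that passed the filter in border-associated macrophages, adjusted p was 0.0014 for Ifi27l2a and 0.00432 for Ccl7. It was 0.00578 for Ifi213 and Igf1 and 0.0181 for Iigp1.

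Igf1 was at 1.41, 2.13, 1.70 and 0.799 UMIs per 10000 in border-associated macrophages and at 0.0184, 0.235, 0.0152 and 0.203 in microglia-like cells, in the same order of pools. The macrophage level was thus above the microglial level in all 4 pools.

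The response was higher in border-associated macrophages by 3.54 for Lgals3, 2.85 ± 0.49 for S100a6 (adjusted p = 2.44e-06) and 1.36 ± 0.31 for Psap (adjusted p = 0.00283), the precursor of lysosomal saposins. Psap was at 10.3, 30.1, 9.96 and 23.02 UMIs per 10000 in border-associated macrophages and at 14.4, 15.7, 14.7 and 15.5 in microglia-like cells. The S100a6 and Psap calls each held in 11 of 18 alternatives, and both were lost without cells with at least 2 UMIs of Ccr2 and Ly6c2 (adjusted p = 0.0596 and 0.187).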

How the results depend on the processing

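No paired analysis was possible because each group had 1 pool. Shares moved beyond their intervals to 0.182% (male sham) and 0.415% (male stroke) with a limit of 20 per 10000 on the microglial genes, to 0.426% (male stroke) with thinning, to 0.366% (male stroke) without cells with at least 2 UMIs of Ccr2 and Ly6c2, and to 1.75% and 2.00% (female and male stroke) without the limit on Chil3 and Arg1.

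Genes higher and lower after stroke, 83 and 62, became 2 and 0 with the limit of 20, 19 and 13 with DESeq2, 133 and 83 with library totals, 159 and 37 without the filter, 38 and 18 with thinning, 13 and 11 without the Ccr2 and Ly6c2 cells, 150 and 94 without male cells with Xist, and 69 and 39 without the deepest cell of each pool. Leaving out a pool gave 62 to 193 higher and 54 to 131 lower.

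Responses higher and lower than in microglia-like cells, 39 and 81, became 15 and 50 with the limit of 20, 11 and 108 with DESeq2, 21 and 124 with its size factors, 7 and 49 over genes tested in the macrophages, 18 and 88 without the filter, 1 and 21 with thinning, 21 and 91 without the 4 cells of high ZsGreen, 22 and 64 without the cells whose Xist went against their pool, 9 and 50 without the Ccr2 and Ly6c2 cells, and 25 and 95 without the deepest cell of each pool. Leaving out a pool gave 6 to 17 higher and 24 to 88 lower. Between the sexes, 1 higher and 2 lower became 2 and 3 with library totals, 6 and 8 without the filter, and 1 and 0 with DESeq2.

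Directions reversed for 4 genes that had not passed the test. Leaving out a pool gave log2 changes from −2.84 to 1.21 for H2-Aa and from −2.59 to 0.72 for Cd74, higher without the female sham pool. It gave −2.35 to 0.0891 for Ifi27l2a and −1.102 to 0.00743 for Ifitm3, an interferon-induced membrane protein, higher without the female stroke pool. The cause of these changes was not tested. A fit without a pool had no sex term, and the lone pool of its condition was assumed to vary like the others. The 6 female sham cells, with 42513 UMIs, limit every comparison with sham.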
